A study of Mus musculus with 8 samples.

Results

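Wnt2 and 9 genes tied to the pericentral zone of the liver lobule were measured in the livers of Snd1 knockout (KO) and wild type (WT) mice. The 10 members are Wnt2, Rspo3, Axin2, Lgr5, Glul, Oat, Slc1a2, Rhbg, Lect2 and Tbx3, and they were taken as all probes that carry one of these symbols in the platform annotation, 15 of 25697 probes and 10 of 16593 gene symbols. They were picked with the KO and WT values of these arrays in view, so their differences between the genotypes are given here as a description with no p-value. The study used 4 WT and 4 KO male mice of C57BL/6N background, 8 to 12 weeks old, and RNA of the left liver lobe was hybridised to Illumina bead arrays, 1 array per animal. The KO lacks the first exon of Snd1, which encodes a Tudor domain protein that binds RNA. The exon was floxed in R1 ES cells and deleted in the germ line with Cre driven by the CAG promoter, so every cell type of the KO liver lacks it, and the deletion line was then backcrossed. The mice of both groups were not fasted and were killed at about noon.

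Hepatocytes divide their work along the axis from the portal vein to the central vein. Endothelial cells of the central vein and the nearby sinusoids secrete Wnt ligands and R-spondin, which keep β-catenin active in the hepatocytes around the vein. There β-catenin with TCF factors turns on genes of glutamine synthesis, ammonium and glutamate transport and xenobiotic metabolism, together with negative feedback genes such as Axin2. The comparison asked if the genes that respond to Wnt differed between the genotypes along with Wnt2, and if they followed Wnt2 from animal to animal.

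Snd1 itself, measured first as a check of the labels, had a log2 intensity of 6.81 ± 0.05 (SD, n = 4) on the WT arrays and 4.20 ± 0.04 on the KO arrays, and was detected on 0 of the 4 KO arrays. It was at least 4.94-fold lower in the KO, where the bound sets the KO mean at the lowest detected signal of each array. The fitted log2 difference was −2.60 (limma adjusted p = 2.98e-07). As Snd1 is the deleted gene and its KO values are background, this test serves only to check the labels. The arrays detected 10684 to 12134 probes each. Mean intensity was 262 to 283 on the WT arrays, and KO 1 and KO 4, at 215 and 223, were dimmer than all others before normalization. The 13 hepatocyte markers tested, such as Apoa1 and Ttr, had a median log2 difference of 0.01, and their summed level was 129400 to 135200 on the WT arrays and 126100 to 138400 on the KO arrays. The probe of Alb, which encodes albumin, was itself near background, at 4.63 ± 0.15 in WT and 4.80 ± 0.17 in KO. A probe counted as detected on an array at a detection p under 0.05, and a gene was tested if its probe was detected on at least 4 of the 8 arrays. Of the members 9 passed, with 13 of their 15 probes, and Lect2 did not. A gene that is present in WT alone can pass this filter.

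The start sites of the members give context for the later values, since TCF factors, the DNA partners of β-catenin, recognise short motifs of the form CTTTGAT. The promoter table from RefSeq (build GRCm38.p6) held 6 of the 10 members, namely Wnt2, Axin2, Glul, Oat, Slc1a2 and Lect2. A window of 300 bases, from 250 before to 50 after the start, was searched on both strands for CTTTGAT and for its variants that end in AA, TA or TT in place of AT. Among all 32851 promoters listed there, 16.9% held any of these and 3.73% held CTTTGAT. No match was present in the windows of Wnt2, Axin2, Glul and Oat, and bases outside the windows were not searched. The 250 bases before the start of the ligand Wnt2 and of the feedback gene Axin2 are shown in full, as the member that names the group and its best known general target. For Slc1a2 and Lect2, and for Sp5, a Wnt-responsive gene outside the members that is described further on, the stretch with the match is shown, with the match in capitals and each sequence written 5′ to 3′ on the strand of its gene.
Wnt2, chr6:18030446-18030695, minus strand: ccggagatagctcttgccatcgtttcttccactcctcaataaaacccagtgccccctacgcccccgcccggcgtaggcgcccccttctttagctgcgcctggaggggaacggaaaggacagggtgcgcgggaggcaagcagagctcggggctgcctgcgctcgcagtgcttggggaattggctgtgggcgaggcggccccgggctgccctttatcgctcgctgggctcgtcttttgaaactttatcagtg
Axin2, chr11:108920099-108920348, plus strand: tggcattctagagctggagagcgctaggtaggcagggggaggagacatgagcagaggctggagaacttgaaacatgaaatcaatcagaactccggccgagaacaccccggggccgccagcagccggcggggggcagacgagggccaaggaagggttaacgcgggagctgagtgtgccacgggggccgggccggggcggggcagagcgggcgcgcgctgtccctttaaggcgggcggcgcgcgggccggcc
Sp5, chr2:70474688-70474837, plus strand: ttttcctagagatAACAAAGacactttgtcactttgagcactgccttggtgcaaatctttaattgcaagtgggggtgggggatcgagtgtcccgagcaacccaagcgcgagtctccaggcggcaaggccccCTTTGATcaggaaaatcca
Slc1a2, chr2:102706215-102706254, plus strand: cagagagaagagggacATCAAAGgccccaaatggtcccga
Lect2, chr13:56548547-56548586, minus strand: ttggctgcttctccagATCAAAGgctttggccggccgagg
The match began 207 bases before the start in Slc1a2 and 32 bases before it in Lect2, both with CTTTGAT on the opposite strand. In Sp5 CTTTGTT lay on the opposite strand 222 bases before the start and CTTTGAT on the gene's own strand 104 bases before it. A match is a property of the letters, and binding of a TCF factor was not measured.

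Wnt2, the ligand, was dim on all arrays and dimmer in most KO livers. Its log2 intensity was 5.62, 4.63, 5.54 and 5.36 on WT 1 to WT 4 and 4.34, 4.17, 4.64 and 4.35 on KO 1 to KO 4. WT 2 stood below the other WT arrays, and the groups overlapped because KO 3, at 4.64, was just above WT 2, at 4.63. The probe was detected on all 4 WT arrays and on 1 KO array (KO 3). The means were 5.29 ± 0.45 (SD, n = 4) and 4.38 ± 0.20, a log2 difference of −0.91 ± 0.21 (SE). The KO mean holds 3 arrays on which the probe was not above background, so no fold is drawn from it. Before background correction the intensity of the probe was 97.5 to 125 on the WT arrays and 86.4 to 101 on the KO arrays, while the median probe of an array lay between 87.2 and 96.6. On intensities without background correction the difference was −0.29, with the same sign. In RNA from whole liver, fewer endothelial cells and less Wnt2 RNA per cell cannot be told apart.

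Rspo3, the R-spondin of the central vein, amplifies Wnt signals by keeping Wnt receptors on the cell surface. Its log2 intensity was 6.06, 6.29, 6.21 and 6.17 on the WT arrays and 5.87, 5.81, 6.26 and 5.88 on KO 1 to KO 4. KO 1, KO 2 and KO 4 lay below all WT arrays and KO 3 lay within them. The log2 difference was −0.23 ± 0.12. Lgr5, a receptor for R-spondins and itself a Wnt target, had log2 intensities of 4.79, 4.98, 4.99 and 4.92 in WT and 5.21, 4.90, 4.92 and 4.78 in KO. Its log2 difference was 0.03 ± 0.12, with detection on all 8 arrays, and the KO arrays spanned the WT arrays on both sides. The sign for Lgr5 turned in 4 of 18 alternative analyses.

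Axin2 encodes a scaffold of the complex that degrades β-catenin and is induced by Wnt in many tissues. Its log2 intensity was 5.80, 6.36, 6.09 and 5.65 on WT 1 to WT 4 and 5.54, 5.53, 5.01 and 5.21 on KO 1 to KO 4. All KO arrays lay below all WT arrays, although KO 1, at 5.54, came close to WT 4, at 5.65. The means were 5.98 ± 0.32 and 5.32 ± 0.26, a log2 difference of −0.65 ± 0.18. Axin2 was highest on WT 2, the WT array on which Wnt2 was lowest.

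Tbx3, a T-box transcription factor of pericentral hepatocytes, had the largest difference among the members. On its brightest probe the log2 intensity was 7.51, 8.00, 8.00 and 7.54 on WT 1 to WT 4 and 7.14, 6.10, 5.63 and 6.17 on KO 1 to KO 4. All KO arrays lay below all WT arrays, with KO 1 nearest to them. The means were 7.76 ± 0.27 and 6.26 ± 0.63, a log2 difference of −1.50 ± 0.28 or 2.83-fold lower in the KO. A second Tbx3 probe read 6.93, 7.67, 7.44 and 6.78 in WT and 6.55, 5.44, 5.58 and 5.84 in KO, again without overlap, for a difference of −1.35. The dimmest Tbx3 probe read 5.88, 5.57, 4.81 and 4.95 in WT and 4.87, 4.59, 4.96 and 4.68 in KO. On that probe KO 3 was above WT 3 and WT 4, and KO 1 was above WT 3. The difference was −0.53, so the 3 probes shared the sign but not the separation.

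Rhbg, an ammonium transporter, had log2 intensities of 5.96, 6.27, 6.43 and 6.50 on WT 1 to WT 4 and 5.86, 5.22, 5.26 and 5.30 on KO 1 to KO 4. KO 2, KO 3 and KO 4 were well below the WT arrays and KO 1 lay just under WT 1. The means were 6.29 ± 0.24 and 5.41 ± 0.30, a log2 difference of −0.88 ± 0.17 or 1.85-fold lower in the KO. KO 1, which stayed nearest to WT for Tbx3 and Rhbg, was also the KO array nearest to WT along the first principal component of all genes (44.5% of the variance), where the WT arrays lay at −14.9 to −10.6 and KO 1 to KO 4 at −7.40, 6.79, 21.2 and 32.4.

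Glul encodes glutamine synthetase, the classic marker of the hepatocytes next to the central vein. Its only probe was near background, with log2 intensities of 5.11, 4.57, 4.80 and 5.01 in WT and 4.30, 4.28, 4.55 and 4.26 in KO. KO 3, at 4.55, nearly reached WT 2, at 4.57, and no arrays overlapped. The probe was detected on 4 WT arrays and on 1 KO array (KO 3), as for Wnt2, and the log2 difference was −0.52 ± 0.14. Its uncorrected intensity was 96.4 to 109 on the WT arrays, little above the median probe, so this probe gives a weak measure of a transcript known to be abundant around the central vein.

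Oat, ornithine aminotransferase, was bright on every array and did not share the direction of Wnt2. It read 12.89, 12.52, 12.50 and 12.28 on WT 1 to WT 4 and 12.54, 12.81, 13.17 and 13.30 on KO 1 to KO 4. KO 3 and KO 4 lay above all WT arrays and the other KO arrays lay among them, for a log2 difference of 0.41 ± 0.19. Slc1a2, a glutamate transporter, read 9.35, 9.06, 9.06 and 9.30 in WT and 9.49, 8.81, 9.18 and 9.46 in KO on its brightest probe. The groups overlapped fully, with a difference of 0.04 ± 0.16 that turned sign in 6 of 18 alternatives, and the other 3 probes gave 0.04, 0.09 and 0.08, the last of them detected on 1 array of each group. Lect2, a secreted protein of hepatocytes, read 4.36, 4.24, 4.50 and 4.36 in WT and 4.39, 4.18, 4.27 and 4.26 in KO, and its probe was detected on 1 of 8 arrays (WT 3), so no difference is drawn from it.

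**Figure D1:**
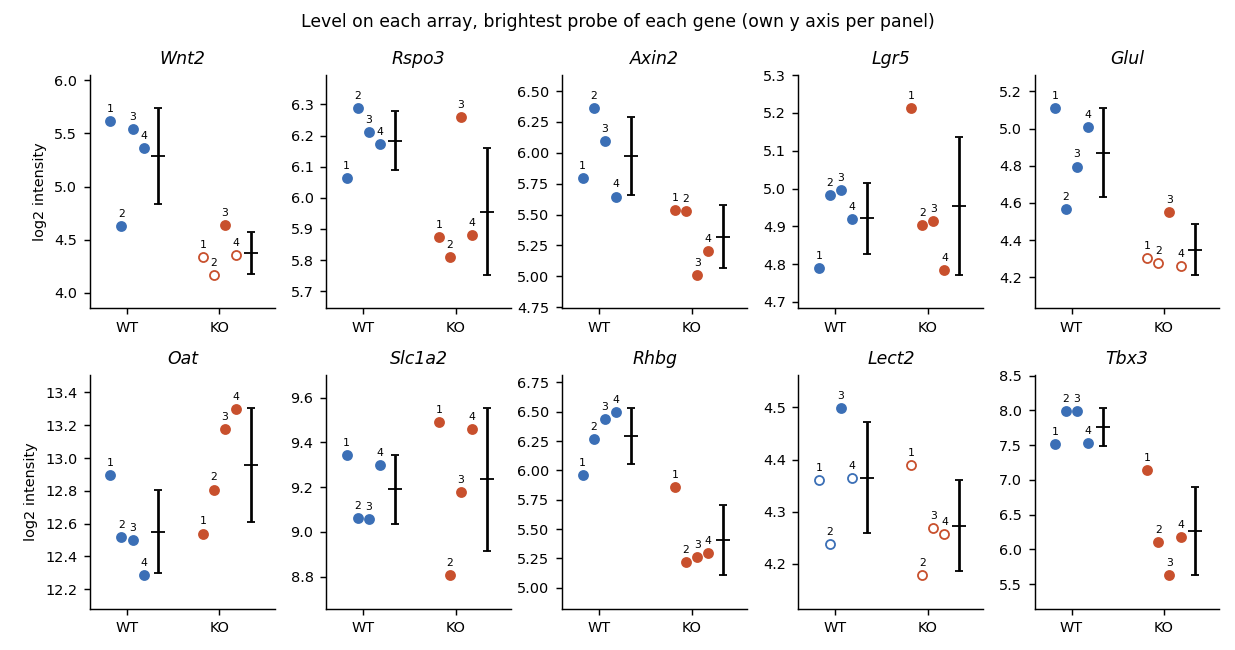
Log2 intensity of each member on each array (y axis, its own range per panel), numbered by replicate, for the brightest probe, with filled points where the probe was detected and open points where it was not; bars are the mean ± SD of 4 arrays. The KO arrays lie below all WT arrays for Axin2, Glul, Rhbg and Tbx3, while KO 3 reaches WT 2 for Wnt2.

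Across the members, 6 of the 9 tested had a log2 difference below 0 and 3 (Lgr5, Slc1a2 and Oat) above 0. The median was −0.52, which is the value of Glul, beside −0.0014 for all 8134 genes tested. It was −0.23 over the members detected on all 8 arrays, −0.22 at an offset of 50 and −0.15 with no background correction. Under the limma call rule used for all genes (adjusted p under 0.05) Wnt2, Rhbg and Tbx3 would count as called, all 3 lower in the KO, where 2.54% of all genes tested were called (1.36% lower and 1.18% higher in the KO). For Axin2, Glul, Rhbg and Tbx3 every KO array was below every WT array, and no member had every KO array above every WT array, where 5.38% and 5.37% of all genes did so. Nothing is read from these counts, since the members were chosen on this contrast and Wnt2 and Glul passed the detection filter through the WT arrays. They also moved with single arrays, since 0 members were called without WT 3, WT 4, KO 2, KO 3 or KO 4 and 1 (Wnt2) without WT 2. With the arrays scaled to a common median in place of quantile normalization, 97 genes in place of 207 were called and 14.4% of these in place of 46.4% were higher in the KO, and Rhbg and Tbx3 were the members among them. The median of all genes then lay at −0.05.

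**Figure D2:**
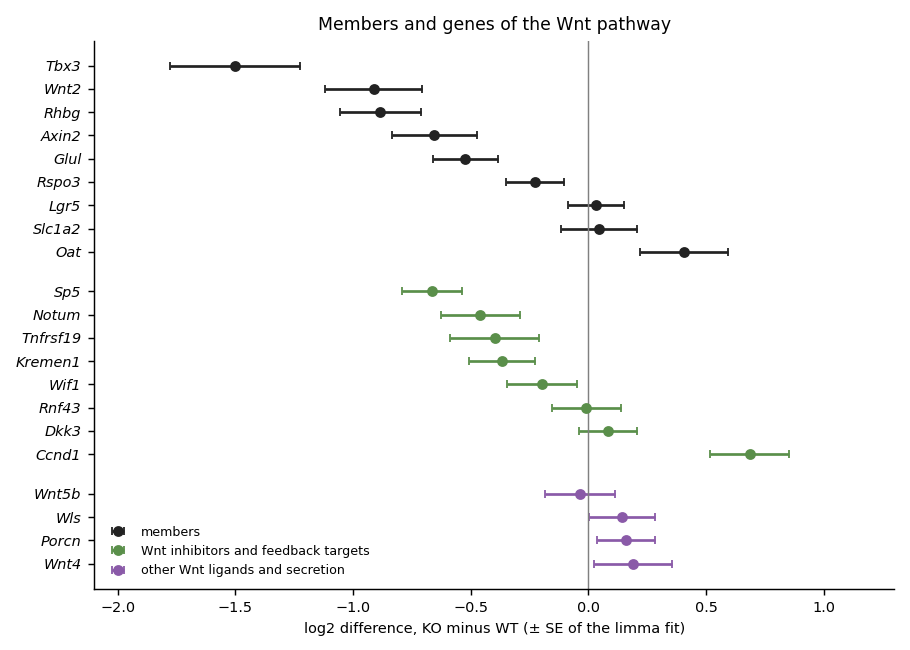
Log2 difference (KO minus WT, x axis) with the standard error of the limma fit for the 9 members tested, for the tested genes of the list of Wnt inhibitors and feedback targets, and for those of the list of other Wnt ligands with the secretion genes Wls and Porcn. Tbx3 at −1.50 and Wnt2 at −0.91 lie farthest to the left, and Sp5 at −0.66 leads the second list.

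The question of whether the targets followed Wnt2 was then asked within the groups, which does not use the contrast of KO with WT. After the mean of its group was taken from each array, the correlation with Wnt2 was computed over the 8 arrays for the 8 other members tested, with an exact permutation test within groups (2-sided, 576 arrangements, smallest p possible 0.00174). Of the 8 correlations 4 were positive and 4 negative, and 0 passed after Benjamini-Hochberg adjustment. On KO 1, KO 2 and KO 4 the Wnt2 probe was not above background. On these arrays every correlation sets a member against background signal of Wnt2, so the tests do not settle whether the members followed Wnt2.

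Glul gave the highest correlation with Wnt2. Pearson's r was 0.83 (exact permutation p = 0.0278, adjusted p = 0.222) and Spearman's rho 0.74 (exact permutation p = 0.0625, adjusted p = 0.25). The relation leaned on WT 2, since r was 0.59 without it and 0.52 without WT 1 and WT 2, the arrays farthest from the median of the centred Wnt2 values. Without WT 1 and WT 3, the farthest by uncentred Wnt2, r was 0.96. WT 2 was the lowest WT array for both genes and KO 3 the highest KO array for both. On KO 1, KO 2 and KO 4 neither probe was above background, so for these arrays the relation compares background signal.

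Axin2 ran the other way, with r of −0.72 (exact permutation p = 0.0729, adjusted p = 0.292) and rho of −0.76 (exact permutation p = 0.0556, adjusted p = 0.25). It too leaned on WT 2, with r of −0.46 without WT 2, −0.45 without WT 1 and WT 2 and −0.94 without WT 1 and WT 3. Tbx3 had r of −0.35 (exact permutation p = 0.285, adjusted p = 0.658), with rho of −0.63 and r of −0.18 without KO 3 to −0.59 without KO 1. Rhbg had r of −0.09 (exact permutation p = 0.832, adjusted p = 0.887), and r of 0.21 without WT 1. The other 4 members had r of 0.33 (Slc1a2), 0.31 (Oat), 0.04 (Rspo3) and −0.23 (Lgr5), with exact permutation p of 0.363, 0.411, 0.887 and 0.502. That of Rspo3 ran from −0.68 without KO 3 to 0.73 without WT 2, so 8 arrays do not fix its sign.

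**Figure D3:**
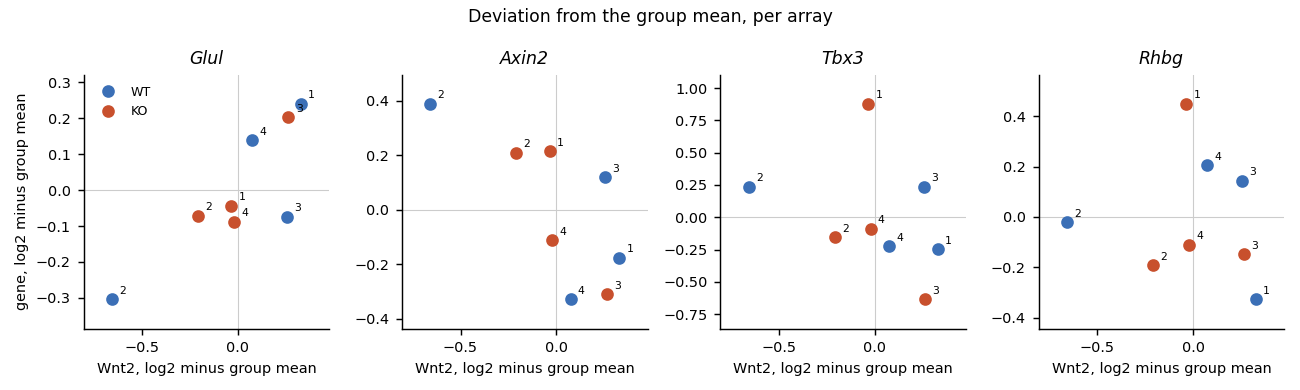
Deviation of each array from the mean of its group, in log2 units, for Wnt2 (x axis) against Glul, Axin2, Tbx3 and Rhbg (y axes), with WT and KO arrays coloured and numbered by replicate. The r with Wnt2 is 0.83 for Glul and −0.72 for Axin2, and WT 2, without which they are 0.59 and −0.46, is the array farthest to the left in all panels. Wnt2 was not detected on KO 1, KO 2 and KO 4.

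Among all genes tested, those whose log2 intensity ran most like that of Wnt2 over the 8 arrays, group difference included, were Glul (r of 0.95), Plscr2 (0.94), Sirt5 (0.94), Maml1 (0.93) and Timd2 (0.92). With the group means removed the values were 0.83, 0.81, 0.86, 0.94 and 0.72. Plscr2 is a member of the phospholipid scramblase family, Sirt5 a mitochondrial deacylase and Maml1 a coactivator of Notch signalling. These are the highest of the correlations with all genes tested, over 8 arrays that share the normalization, and are given as a description. Wnt2 and Glul were both chosen on the contrast of KO with WT, which the r of 0.95 includes. Neither probe was above background on most KO arrays, so nothing is read from this rank.

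Other genes of the Wnt pathway were read from 3 lists. Of the 23 other ligands and secretion genes 4 were detected and 0 were called in either direction, with 0 at an unadjusted p under 0.05. The log2 difference was 0.19 ± 0.17 for the ligand Wnt4, −0.03 ± 0.15 for Wnt5b, 0.14 ± 0.14 for the Wnt carrier Wls and 0.16 ± 0.12 for Porcn, which adds the lipid to Wnt proteins. The Wnt9b probe, for the other Wnt of the central vein, was not detected on enough arrays to be tested. Of 25 receptors and cascade genes tested 0 were called by limma. At an unadjusted p under 0.05 there were 3 higher and 1 lower. These were 12% and 4% of the list, beside 8.85% and 8.54% of all genes tested. The gene of β-catenin itself, Ctnnb1, differed by −0.08. The kinase gene Csnk1d was nearest to the threshold, at −0.40 ± 0.11 (limma adjusted p = 0.0965).

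Among 8 inhibitors and feedback targets tested Sp5, a transcription factor induced by Wnt in several tissues, was lower in the KO and was the 1 gene called. It read 6.17, 6.37, 6.21 and 5.83 on WT 1 to WT 4 and 5.56, 5.49, 5.39 and 5.47 on KO 1 to KO 4. All KO arrays were below all WT arrays, with a log2 difference of −0.66 ± 0.13 (limma adjusted p = 0.0276). The call was lost without WT 1, WT 2, WT 3, KO 2, KO 3 or KO 4, with an adjusted p of up to 0.102, and with median scaling (adjusted p = 0.0739), and the direction held in all 18 alternatives. Notum, the lipase that strips the lipid from Wnt proteins, differed by −0.46 ± 0.17 (limma adjusted p = 0.184), Kremen1, a receptor for Dkk inhibitors, by −0.37 ± 0.14 (adjusted p = 0.211) and the receptor-removing ligase Rnf43 by −0.01. The cyclin gene Ccnd1 differed by 0.68 ± 0.17 (adjusted p = 0.063), opposite in sign to Axin2 and Sp5. By limma 1 gene of the list was higher and 3 were lower at an unadjusted p under 0.05. These were 12.5% and 37.5% of the list, beside 8.85% and 8.54% of all genes tested. The median of the list was −0.28, and −0.44 without WT 1, −0.09 without background correction and −0.015 without the detection filter.

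Of 24 other pericentral hepatocyte genes tested 1 rose and 1 fell by limma. At an unadjusted p under 0.05 there were 5 lower, 20.8% of the list beside 8.54% of all genes tested. The 3 higher were 12.5% of the list beside 8.85%. The median was 0.04, with −0.04 without KO 4 and −0.13 with median scaling. Sult5a1, a sulfotransferase, read 5.83, 6.43, 6.64 and 5.97 in WT and 5.13, 4.96, 4.74 and 4.46 in KO. No arrays overlapped, the log2 difference was −1.39 ± 0.20 (limma adjusted p = 0.0086), and it was called in all 18 alternatives. Gstm1, a glutathione transferase whose probe may also bind transcripts of close paralogs, differed by 0.64 ± 0.13 (adjusted p = 0.0314) and lost the call without WT 2, WT 3, WT 4, KO 2, KO 3 or KO 4 (adjusted p up to 0.112) and with median scaling (adjusted p = 0.417). Slc13a3, a dicarboxylate transporter, at −0.64 ± 0.18 and Aldh1a1, a retinal dehydrogenase, at −0.62 ± 0.18 did not pass (adjusted p of 0.0988 and 0.101). The cytochrome genes Cyp2e1 and Cyp1a2, broad pericentral markers, differed by 0.05 and −0.04. Among the genes of the list 10 had a difference below 0 and 14 above 0.

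Of 27 periportal genes tested 2 rose and 0 fell by limma, with a median of 0.08 (0.01 without KO 4 and 0.22 without KO 1). At an unadjusted p under 0.05 there were 8 higher, 29.6% of the list beside 8.85% of all genes tested. The 2 lower, Cyp2f2 and Apoa4, were 7.41% of the list beside 8.54%. The cytochrome gene Cyp2f2 differed by −0.44 ± 0.11 (limma adjusted p = 0.0655), with every KO array below every WT array. Apoa4 differed by −0.45 ± 0.16 (limma adjusted p = 0.182), with overlap. Ass1, an enzyme of the urea cycle, differed by 0.66 ± 0.11 (limma adjusted p = 0.0181) and Uox, urate oxidase, by 0.81 ± 0.15 (adjusted p = 0.0227). Both lost the call without WT 2, WT 3, WT 4 or KO 3, and Uox also without KO 4 (adjusted p up to 0.0767 for Ass1 and 0.0991 for Uox). With median scaling Ass1 and Uox were not called (adjusted p of 0.273 and 0.23). Etnppl, a phospholyase, at 1.69 ± 0.40 and Hpd, an enzyme of tyrosine breakdown, at 0.45 ± 0.11 did not pass (adjusted p of 0.0565 and 0.0593).

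Wnt2 and Rspo3 come from endothelial cells, and markers of liver endothelial cells in general were read as a list. Of 37 tested 0 rose and 1 fell by limma, and their median was 0.15. At an unadjusted p under 0.05 there were 6 higher, 16.2% of the list beside 8.85% of all genes tested. The 2 lower were 5.41% of the list beside 8.54%. Their summed level, in which bright probes weigh most, was 7788 to 8207 on the WT arrays and 7788 to 8686 on the KO arrays. The marker that fell was Nrp1, a coreceptor for VEGF and semaphorins that other liver cells also carry, at −1.01 ± 0.18 (limma adjusted p = 0.0227), with the call lost without WT 2, WT 3, WT 4 or KO 3 (adjusted p up to 0.0862). Lyve1, a sinusoidal marker, differed by 0.96 ± 0.28 with overlap and did not pass (adjusted p = 0.104). Stab2, also a sinusoidal marker, differed by −0.24 ± 0.10 (adjusted p = 0.224), with every KO array below every WT array. Among the genes of this list 13 had a difference below 0 and 24 above 0. The number of endothelial cells around the central vein was not tested.

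Among the markers of other liver cells, all 11 Kupffer cell markers tested had a log2 difference below 0 (median −0.44, with −0.27 without WT 4 and −0.21 without background correction). At an unadjusted p under 0.05 there were 6 lower, 54.5% of the list beside 8.54% of all genes tested, with Fcna called at −0.62 ± 0.13 (limma adjusted p = 0.0415), and their summed level was 2810 to 4236 in WT and 2503 to 3144 in KO, with overlap. Stellate cell markers had a median of 0.23 over 14 tested (0.14 without WT 2, 0.11 at an offset of 50 and 0.07 with no background correction). At an unadjusted p under 0.05 there were 3 higher, 21.4% of the list beside 8.85% of all genes tested, and 0 lower. Their summed level, in which bright probes weigh most, was 3702 to 4104 in WT and 4347 to 5419 in KO, without overlap. The median log2 intensity of the list per array did overlap, at 5.73 to 5.91 in WT and 5.66 to 5.84 in KO. Acta2 was called at 1.04 ± 0.23 (limma adjusted p = 0.0425). Both calls were lost without WT 2, WT 3, WT 4, KO 2, KO 3 or KO 4 (adjusted p up to 0.145 for Fcna and 0.148 for Acta2). Of bile duct markers 2 of 9 were detected and 0 called. The part of these cells in the values of the members was not tested.

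**Figure D4:**
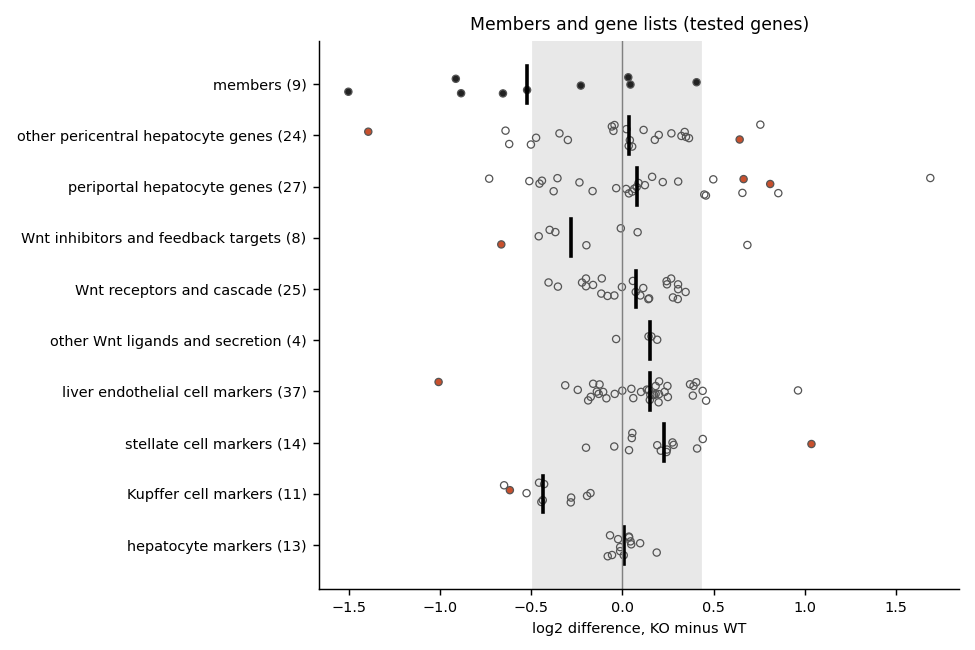
Log2 difference (KO minus WT, x axis) of each tested gene by list, with the number tested in brackets, the list median as a bar, and the middle 90% of all genes (−0.49 to 0.43) in grey. The members, chosen on this contrast, are in black, and orange points are other genes with a limma adjusted p under 0.05. The bars of the members (−0.52) and of the Kupffer cell markers (−0.44) lie left of those of the pericentral (0.04) and periportal (0.08) lists, and shrink to −0.15 and −0.21 without background correction.

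Wnt2 lies on chromosome 6, as does Snd1, and the other members lie on other chromosomes. In the gene order of the chromosome 37 coding genes lie between Wnt2 and Snd1. Of these 9 were tested, and 1 was called, where 2.54% of all genes tested were called. It was Arf5, a small GTPase, at −0.59 ± 0.11 (limma adjusted p = 0.0227). The call was lost without WT 2, WT 3, WT 4, KO 2 or KO 3 (adjusted p up to 0.0888). Fam3c differed by −0.34 ± 0.14 (adjusted p = 0.222). For Arf5 and Fam3c every KO array was below every WT array, as for 5.38% of all genes. The median of the 9 was 0.04. DNA of the ES cell strain near Snd1 may remain in the KO after backcrossing. Its part in the values of Wnt2, Arf5 and Fam3c cannot be told apart from that of the deletion and was not tested.

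The direction of the members was compared over the 18 alternative analyses. Tbx3 ranged from −2.02 to −0.93, Rhbg from −1.08 to −0.39, Axin2 from −0.90 to −0.27 and Rspo3 from −0.33 to −0.03. Wnt2 ranged from −1.13 to −0.29 and Glul from −0.62 to −0.15 in the 17 alternatives that kept them, as a filter of detection on all 8 arrays drops both. Oat ranged from 0.20 to 0.63. The values nearest to 0 of Wnt2, Axin2, Glul and Rhbg came from the authors' processed values, and intensities without background correction gave the same values to 2 decimals.

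**Figure D5:**
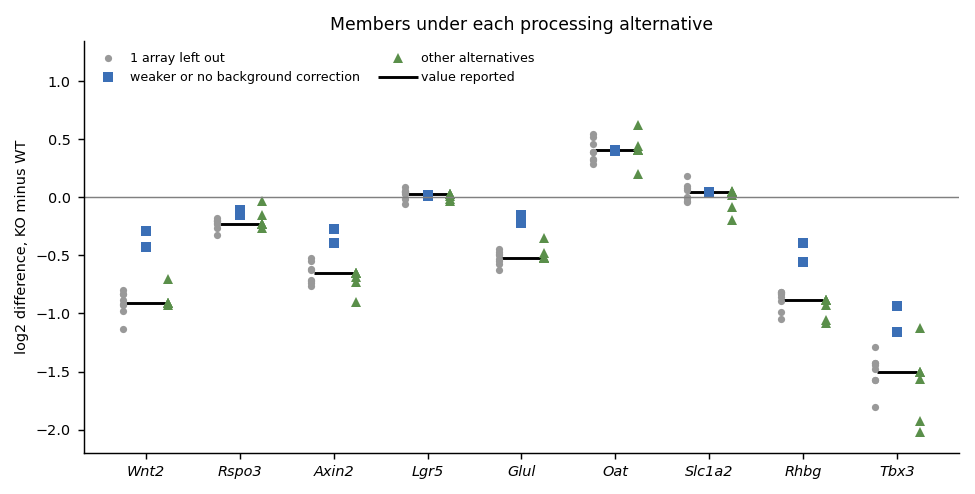
Log2 difference (KO minus WT, y axis) of the 9 tested members under each alternative, with the value reported as a black bar. Leaving out 1 array (grey) moves Wnt2 between −1.13 and −0.80, and weaker or no background correction (blue) brings it to −0.43 and −0.29.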

How the data were processed

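Liver RNA of 4 WT and 4 Snd1 KO mice was hybridised to Illumina MouseRef-8 v2.0 arrays, and the titles of the samples gave the groups. The authors deposited bead-averaged probe intensity on a linear scale without normalization (75.2 to 22138) and its detection p-value, and also processed intensity, which served as an alternative here. In the study's methods normalized intensities were compared with a 2-group test in Chipster, while scanner and normalization software were not given in the sources used here. In R 4.3.3 with limma 3.58.1 the intensity was corrected with normexp from the detection p-value (offset 16, which compresses changes of dim probes), quantile normalized over 8 arrays, which would hide a change of total RNA per cell, and set to log2. Of 25697 probes 23978 had a gene symbol, and 10945 of these were detected on at least 4 arrays. The brightest probe stood for each of 8134 genes. KO and WT were compared with lmFit and eBayes (2-sided, no covariate) with Benjamini-Hochberg adjustment over the 8134 genes, and log2 differences are KO minus WT. Summed levels are sums of the normalized linear values.

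The members, the gene lists and the tests were chosen with earlier results of these data known, and a list from these livers is no independent evidence. The text names all member probes, Snd1 and up to 4 tested genes of lowest p per list (of which not all are printed). It also names the 5 genes most correlated with Wnt2 and called genes between Wnt2 and Snd1. Ctnnb1, Rnf43, Cyp2e1, Cyp1a2, Wnt9b and Alb were added as reference genes after their values were seen. Cyp2f2, Apoa4, Stab2 and Fam3c were also added after their values were seen. The number of arrays, 4 per group, limits the precision. The steps were tested on simulated data. Alternatives changed the offset, background correction, scaling, filter, probe rule, array weights and replicate block, used the authors' processed intensity, or left out arrays; leaving out both dimmer KO arrays was added after seeing the data.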

Additional observations from a re-analysis of the deposited data

Results flagged for a closer look

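Of 98 groups of 4 arrays examined, 6 held an array far from the other 3, and chance marks about 1 in 20 groups. Among the members, Rspo3 read 6.258 on KO 3 against 5.81 to 5.88 on the other KO arrays, and Glul read 4.551 on KO 3 against 4.26 to 4.304. KO 3 was also the only KO array on which Wnt2 was detected. Rhbg read 5.857 on KO 1 against 5.216 to 5.297 on the other KO arrays.

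Among the other genes, Lyve1 read 6.325 on KO 1 against 7.142 to 7.238, and Fga, a fibrinogen chain of hepatocytes, read 13.78 on KO 4 against 13.94 to 13.97. Folr2, a Kupffer cell marker, read 6.499 on WT 1 against 7.08 to 7.163 on the other WT arrays.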

How the results depend on the processing

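Calls depended on the setting more than directions did. The 207 genes called became 97 with median scaling, 96 without the detection filter, 2190 with array weights, and 38 (without WT 3) to 511 (without KO 1) when 1 array was left out. Members called, 3 as reported, were 0 without the filter and 6 with array weights, and 0 to 3 when 1 array was left out. Array weights gave 1 call among the other ligands, 7 in receptors and cascade, 4 in inhibitors and feedback targets, 12 in the other pericentral list, 15 in the periportal list and 17 among endothelial markers. Without the filter the counts of the last 5 lists were 1, 0, 1, 1 and 0, and with median scaling the feedback, pericentral and periportal lists had 0, 1 and 0. The mean of kept probes left 1 pericentral and 1 periportal call. An offset of 50, no background correction and the authors' processed values each gave 5 periportal calls. Without both dimmer KO arrays, chosen after seeing the data, there were 2 feedback, 4 periportal and 2 endothelial calls. Leaving out 1 array gave 0 to 1 feedback, 1 to 4 pericentral, 0 to 9 periportal and 0 to 6 endothelial calls. The cause of these shifts was not tested.

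Same-numbered WT and KO arrays did not deviate together (correlations of 0.09, −0.09, 0.12 and −0.01). The paper used littermates, and these correlations cannot show whether the numbers match litters. With the replicate block 92 genes, 1 member (Wnt2), 0 feedback, 1 pericentral and 1 periportal gene were called.

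Wnt2 differed by −0.43 at the larger offset of 50, and by −0.29 either with uncorrected background or in the authors' processed values. Few signs turned. Wnt5b differed by 0.018 with array weights and by −0.13 to 0.083 when 1 array was left out. Slc4a2, a bile duct marker, differed by −0.0608 with median scaling and by −0.076 to 0.090 when 1 array was left out, and Ttr by −0.10 with median scaling. The correlation of Rspo3 with Wnt2 was −0.057 with an offset of 50 and −0.68 (without KO 3) to 0.73 (without WT 2) when 1 array was left out, and that of Rhbg was −0.28 to 0.21. Probes near background (Wnt2, Glul, Lect2) limit what these arrays show of the pericentral zone.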
